A study of Mus musculus with 16 samples.

Results

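The miR-99/100 and miR-125 microRNAs were examined in the lateral ventricle (LV) wall of Dgcr8+/- mice and WT littermates. The members were the 9 mature microRNAs (miRNAs) whose name on the array was mmu-miR-99a-5p, mmu-miR-99b-5p, mmu-miR-99b-3p, mmu-miR-100-5p, mmu-miR-125a-5p, mmu-miR-125a-3p, mmu-miR-125b-5p, mmu-miR-125b-1-3p or mmu-miR-125b-2-3p, of 1881 mature mouse miRNAs on the array. The LV wall of 16 male mice aged 8 months was profiled on 1-colour miRNA arrays, with 1 mouse per array, 8 WT littermates and 8 mice heterozygous for a loss of Dgcr8, on a C57BL/6J background. The array has no probe for the Dgcr8 mRNA, so the genotype labels could not be checked against the targeted gene. Dissected wall holds several cell types, and fewer cells of a type and less of a miRNA per cell cannot be told apart in such samples.

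DGCR8 is the RNA-binding partner of the nuclease DROSHA, and together they cut hairpins out of primary miRNA transcripts. DICER then releases a duplex, of which the guide arm is loaded into Argonaute and the passenger arm is mostly degraded. In mammals the miR-99/100, let-7 and miR-125 genes lie next to each other in 3 related clusters, an arrangement shared with distant animals. The miR-125 family is known for its part in neural differentiation, and miR-99/100 for targeting components of mTOR signalling.

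The sequences of the 5 guides are shown because the members fall into families by their seed, bases 2 to 8, which is in capitals. They are the mature sequences of RefSeq (build GRCm38.p6), 5′ to 3′, in which all 9 members were found.
mmu-miR-99a-5p: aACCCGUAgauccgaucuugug
mmu-miR-100-5p: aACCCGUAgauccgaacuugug
mmu-miR-99b-5p: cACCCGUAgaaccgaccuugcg
mmu-miR-125a-5p: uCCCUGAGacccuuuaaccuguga
mmu-miR-125b-5p: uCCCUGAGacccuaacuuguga
The first 3 share 1 seed. Counted from 1 at the 5′ end, miR-99a-5p and miR-100-5p differ by 1 substitution, U16A, and miR-99a-5p and miR-99b-5p by 4, A1C, U11A, U16C and U21C. The probe sequences were not used here, so how far probes for such close relatives read each other was not tested. miR-125a-5p and miR-125b-5p share a seed and their first 13 bases, and differ in length, 24 against 22 bases. No passenger arm shares a seed with another member, as these 4 sequences show.
mmu-miR-99b-3p: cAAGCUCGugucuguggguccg
mmu-miR-125a-3p: aCAGGUGAgguucuugggagcc
mmu-miR-125b-1-3p: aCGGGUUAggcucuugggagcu
mmu-miR-125b-2-3p: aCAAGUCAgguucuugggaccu

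In GRCm38.p6, Mir99a, Mirlet7c-1 and Mir125b-2 span 47400 bases of the plus strand of chromosome 16, from 77598940 to 77646339. Mir100, Mirlet7a-2 and Mir125b-1 span 50565 bases of the plus strand of chromosome 9, from 41531437 to 41582001, inside the coordinates of the noncoding host gene Mir100hg. Mir99b, Mirlet7e and Mir125a are much closer together, in 683 bases of the plus strand of chromosome 17, from 17830194 to 17830876, inside the coordinates of Spaca6. Mature miR-125b-5p has the same sequence from chromosomes 9 and 16, so its signal cannot be assigned to either locus.

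The summed signal per array ran from 21545358 to 29763412 units in WT and from 18528866 to 23440575 in Dgcr8+/- mice, and 495 to 540 against 467 to 492 miRNAs were detected. The arrays lay on 2 slides, with 6 WT and 2 Dgcr8+/- arrays on slide 1 and 2 WT and 6 Dgcr8+/- arrays on slide 2. Dgcr8+/- replicate 2, on slide 1, had the lowest signal and stood apart from its group, with a median Pearson r of 0.979 with the other Dgcr8+/- arrays against 0.994 to 0.997 for the rest. Values below are log2 signals after quantile normalization, and a difference is Dgcr8+/- minus WT on that scale. Before normalization the median difference over the 495 tested miRNAs was −0.39, and after it 0.037, so each direction below is relative to the other miRNAs of the array. Of 7 markers of multiciliated ependyma, the cells that line the ventricle, 5 were tested and 0 passed the limma threshold in either direction, and miR-449b and miR-449c-5p were not detected on any array. The median difference of the 5 tested markers was 0.29, so not passing does not mean unchanged. The log2 of the summed signal of all 7 was 9.09 to 10.3 in WT and 9.77 to 10.6 in Dgcr8+/- mice, and its part in the results was not tested. Of the other marker miRNAs tested, limma called 1 of 2 of choroid plexus and 1 of 3 of red blood cells lower, 2 of 4 of blood vessels and 1 of 4 of oligodendrocytes higher, and 1 lower and 1 higher among 4 of microglia and immune cells and among 5 of neurons.

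Of the 9 members, 8 were tested, and at an adjusted p below 0.05 (limma, Benjamini-Hochberg over all tested miRNAs) 3 were lower and 1 was higher in Dgcr8+/- mice. The 3 lower members were the miR-99/100 guides, and the higher one was miR-125a-3p. Over all 495 tested miRNAs, 27.9% were lower and 28.3% were higher (138 and 140 miRNAs), so the members' share was not far from the background. That split depended on the scaling, with 126 lower and 210 higher under 75th-percentile scaling on the always-detected probes, and 293 lower and 0 higher without normalization. The median difference of the 8 tested members was 0.034, beside 0.037 over all tested miRNAs. The sizes were small, since the quartiles over all tested miRNAs were −0.27 and 0.27 and each member lay between them.

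**Figure D1:**
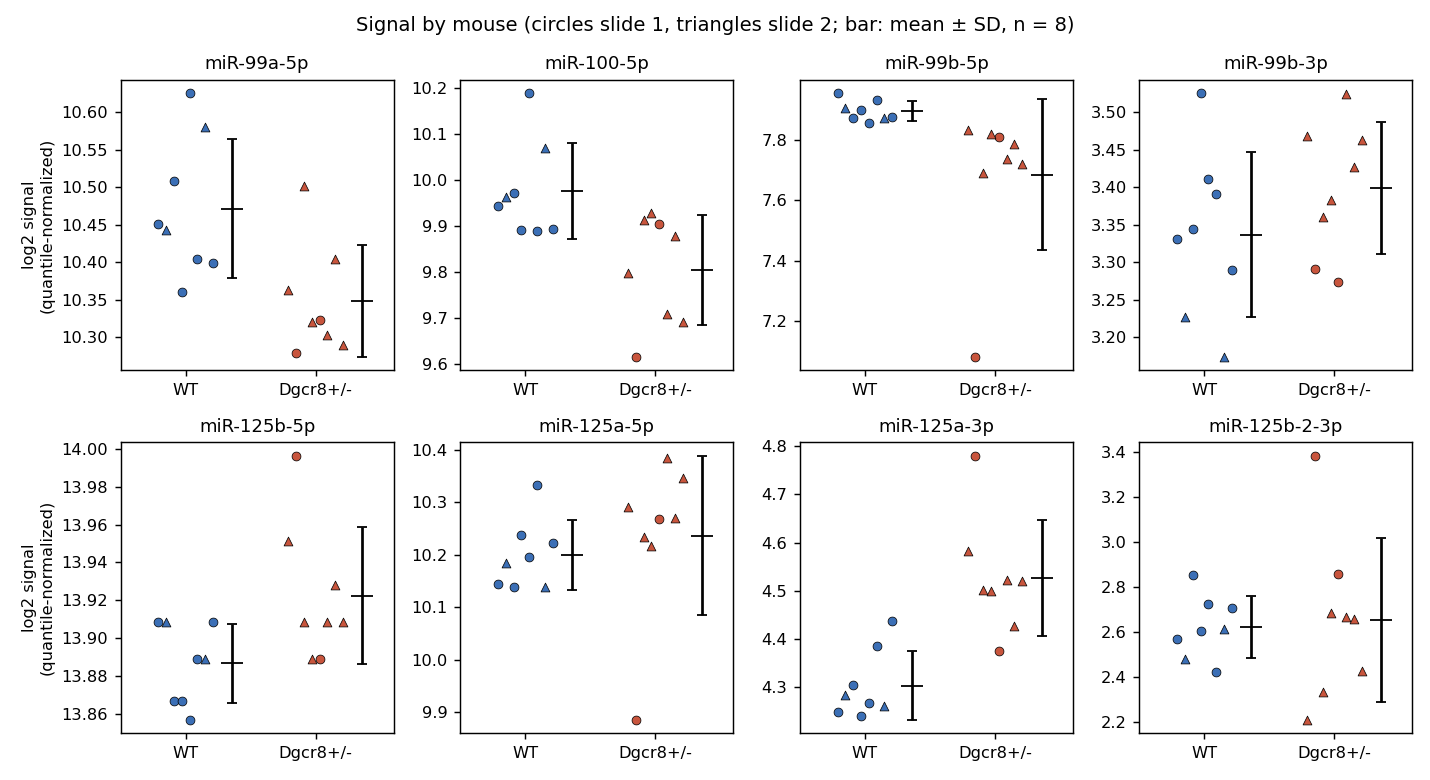
Log2 signal after quantile normalization of the 8 tested members in each mouse, for 8 WT and 8 Dgcr8+/- mice, with the mean ± SD beside the points; each panel has its own axis, which does not start at 0. The miR-99b-5p groups do not overlap, and 1 Dgcr8+/- array at 7.08 lies apart.

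miR-99b-5p, the guide of the chromosome 17 cluster, had a log2 signal of 7.86 at the lowest, 7.89 at the median and 7.96 at the highest in WT, and 7.08, 7.76 and 7.83 in Dgcr8+/- mice. Every Dgcr8+/- array lay below every WT array. Of the tested members it was the only one whose groups did not overlap, beside 17.2% of all tested miRNAs in this direction and 7.07% in the other, where no member lay. The difference was −0.21 ± 0.086 (SE, limma adjusted p = 0.0453), a linear change of −13.6%. Without Dgcr8+/- replicate 2, which held the lowest value, the difference was −0.13 (limma adjusted p = 0.00142). The p-value lay near the threshold, and the call was lost when any 1 of the 8 WT arrays or Dgcr8+/- replicate 3, 6 or 8 was left out (limma adjusted p = 0.0515 to 0.0711). Within slide 1, which holds that array, the difference was −0.45, and within slide 2 it was −0.13. Its 2 probes gave −0.20 and −0.22. With replicate number as a block in limma the call was lost.

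miR-100-5p, the guide of the chromosome 9 cluster, ran from 9.89 to 10.19 with a median of 9.95 in WT, and from 9.62 to 9.93 with a median of 9.84 in Dgcr8+/- mice. The groups overlapped, with 5 of 8 Dgcr8+/- arrays below all WT arrays. The difference was −0.17 ± 0.059 (SE, limma adjusted p = 0.0199), a linear change of −11.2%.

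miR-99a-5p, the guide of the chromosome 16 cluster, ran from 10.36 to 10.63 with a median of 10.45 in WT, and from 10.28 to 10.501 with a median of 10.32 in Dgcr8+/- mice. Here too the groups overlapped and 5 of 8 Dgcr8+/- arrays lay below all WT arrays. The difference was −0.12 ± 0.048 (SE, limma adjusted p = 0.0356), a linear change of −8.20%. This call was lost when WT replicate 3, 5 or 7 or Dgcr8+/- replicate 4, 5, 6 or 8 was left out (limma adjusted p = 0.0551 to 0.0731), while that of miR-100-5p was kept without any 1 array. All 3 miR-99/100 guides had a negative difference under each of the 33 alternative settings run. Several of these settings changed only the test or the detection filter, so the differences there were the same by construction. The calls of the 3 guides did not hold under all settings. None of them passed where marked outlier spots were kept, at limma adjusted p-values of 0.297, 0.271 and 0.124 for miR-99a-5p, miR-100-5p and miR-99b-5p. Nor did any pass without the detection filter, with limma adjusted p-values of 0.0615 for miR-99a-5p, 0.0515 for miR-100-5p and 0.15 for miR-99b-5p.

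The miR-125 guides did not pass the test. miR-125b-5p was among the brightest miRNAs on each array, at rank 8 on all 16 arrays. Its log2 signal was 13.86 at the lowest, 13.89 at the median and 13.91 at the highest in WT, and 13.89, 13.91 and 14.00 in Dgcr8+/- mice, so the groups overlapped. The difference was 0.036 ± 0.031 (SE, limma adjusted p = 0.329), with a 95% interval from −0.030 to 0.10. One of its 2 probes held rank 10 of 4415 on all arrays, and quantile normalization gives such a probe the same value everywhere, so its difference was 0 by construction. Under 75th-percentile scaling on the always-detected probes, miR-125b-5p was higher by 0.19 (limma adjusted p = 0.000566), with cyclic loess by 0.17 (limma adjusted p = 0.00133), and without normalization its difference was −0.34.

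miR-125a-5p, from the cluster that holds miR-99b, ran from 10.14 to 10.33 with a median of 10.19 in WT, and from 9.89 to 10.38 with a median of 10.27 in Dgcr8+/- mice. The lowest value belonged to Dgcr8+/- replicate 2, and the groups overlapped. The difference was 0.037 ± 0.061 (SE, limma adjusted p = 0.62), with a 95% interval from −0.091 to 0.16. Without that array it was 0.087 (limma adjusted p = 0.0437), so the array decided this call. Within slide 1, which holds the array, it was −0.14, and within slide 2 it was 0.13.

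The passenger arms were dim. miR-125a-3p ran from 4.24 to 4.44 with a median of 4.27 in WT, and from 4.37 to 4.78 with a median of 4.51 in Dgcr8+/- mice. Of the 8 Dgcr8+/- arrays, 6 lay above all WT arrays. The difference was 0.22 ± 0.053 (SE, limma adjusted p = 0.00194), a linear change of 16.7%, and its 4 probes had differences of 0.18 to 0.30. The sign turned without normalization, to −0.14 (limma adjusted p = 0.143), and where spots marked as outliers were kept, to −0.70 (limma adjusted p = 0.52). In the latter case 1 probe read 13749.5 units on WT replicate 8, against 36.6 without the marked spots.

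miR-99b-3p ran from 3.17 to 3.53 in WT and from 3.27 to 3.52 in Dgcr8+/- mice, with medians of 3.34 and 3.40, and was detected on 15 of 16 arrays. The groups overlapped, and the difference was 0.062 ± 0.054 (SE, limma adjusted p = 0.326). It passed at 0.22 under 75th-percentile scaling on the always-detected probes (limma adjusted p = 0.0169), was −0.31 without normalization, and went opposite ways within the slides, at −0.10 in slide 1 and 0.24 in slide 2. miR-125b-2-3p was detected on 7 of 8 WT and 3 of 8 Dgcr8+/- arrays. Its log2 signal ran from 2.42 to 2.85 in WT and from 2.21 to 3.38 in Dgcr8+/- mice, with medians of 2.61 and 2.66, and the difference was 0.032 ± 0.13 (SE, limma adjusted p = 0.853). miR-125b-1-3p, the passenger arm from chromosome 9, was not detected on any array and was not tested. Of the passenger arms of the 2 miR-125b loci, the array thus read only that of chromosome 16, and signals of different probes are no measure of relative amount.

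**Figure D2:**
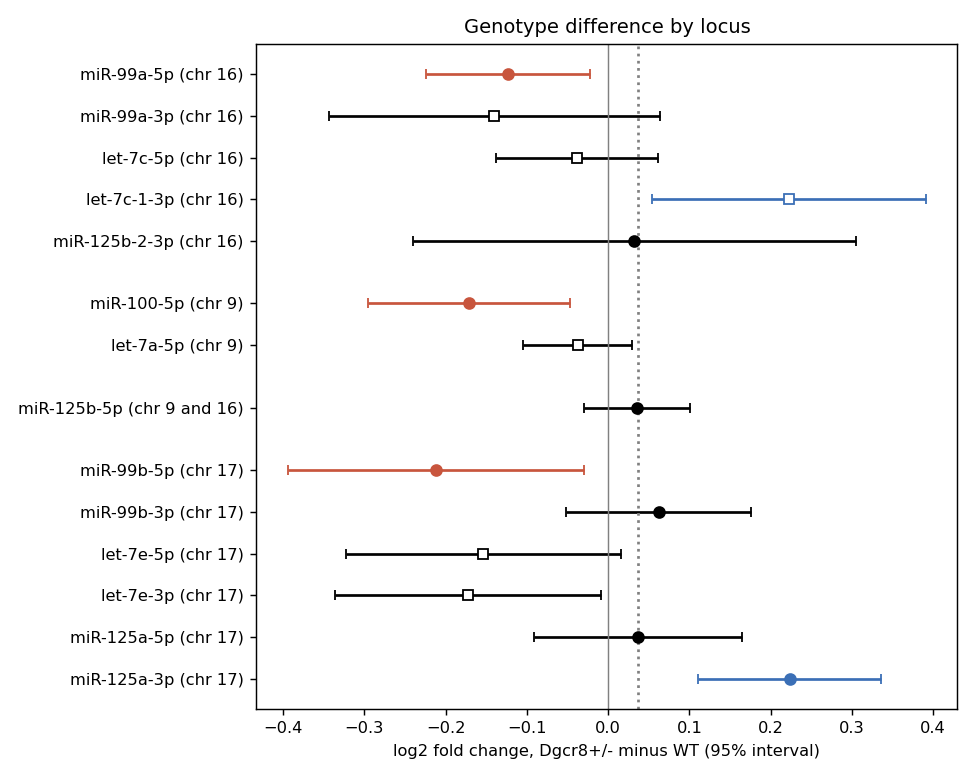
Log2 fold change of Dgcr8+/- over WT (8 mice each) with its 95% interval from limma, for tested members (filled circles), other tested arms and let-7 miRNAs of the 3 clusters (open squares), grouped by chromosome; red marks lower and blue higher at an adjusted p below 0.05, and the dotted line is the median of all tested miRNAs, 0.037. miR-99a-5p, miR-100-5p and miR-99b-5p are the red points. let-7a-5p and let-7c-5p each have a second gene outside these clusters.

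Ratios of members measured on the same array do not change when a whole array is scaled up or down, but quantile normalization is no such scaling and can change them. Of 12 such ratios, 9 could be computed, since the other 3 need miR-125b-1-3p, and p-values were adjusted over the 9. The exact permutation test over all 12870 groupings of the arrays was 2-sided, and its smallest possible p is 0.000155. Of the 9 ratios, 3 passed at 0.05, and all 3 were within the chromosome 17 cluster. One of them, miR-99b-5p over miR-125a-5p, shares a member with each of the others, so the 3 are not separate results. The other computed ratios of arms or cluster neighbours used miR-125b-2-3p, detected on 3 of 8 Dgcr8+/- arrays. Other clusters could thus hardly be compared in this way.

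**Figure D3:**
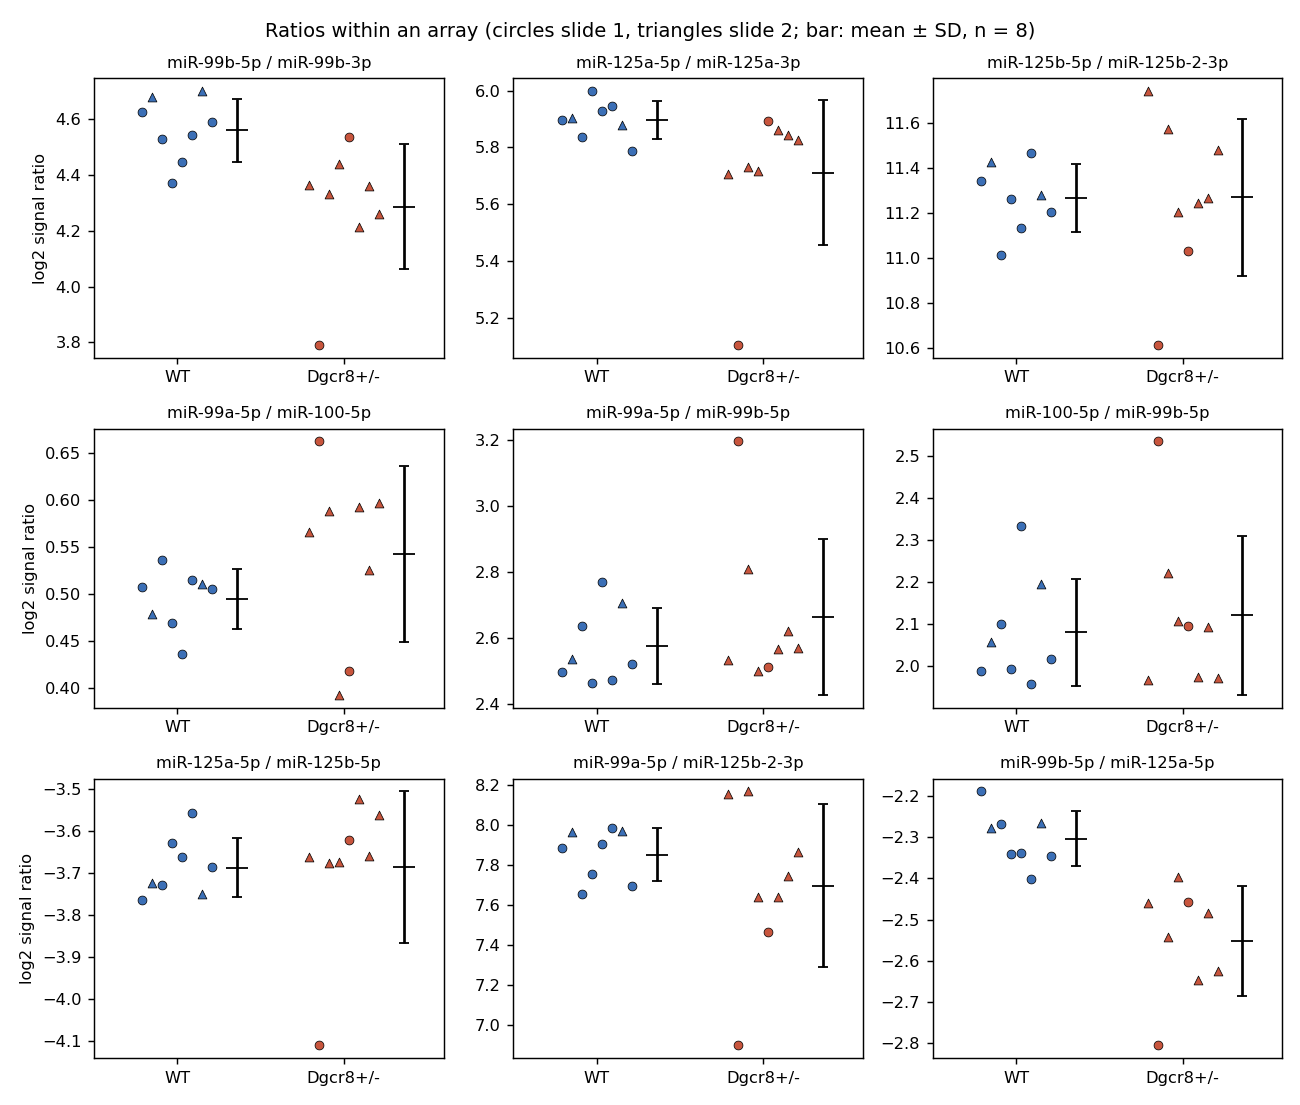
Log2 ratio of the signals of 2 members on the same array for each of 8 WT and 8 Dgcr8+/- mice, with the mean ± SD beside the points; axes differ between panels and do not start at 0. In the last panel, miR-99b-5p over miR-125a-5p, 7 of 8 Dgcr8+/- mice lie below all WT mice.

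The ratio of miR-99b-5p to miR-125a-5p, guides cut from the same transcript, had a log2 value of −2.40 at the lowest, −2.31 at the median and −2.19 at the highest in WT, and −2.81, −2.51 and −2.40 in Dgcr8+/- mice. In 7 of 8 Dgcr8+/- mice it was below all WT values. The difference was −0.25 with a 95% interval from −0.37 to −0.14 (exact permutation p = 0.000311, adjusted p = 0.0028). It was −0.32 within slide 1 and −0.25 within slide 2, −0.29 before normalization and −0.21 without Dgcr8+/- replicate 2. With Dgcr8+/- replicate 5 as the lone Dgcr8+/- array of slide 1 it was −0.14. This call and those of the 2 arm ratios below were lost with arrays paired by replicate number. The sign-flip test used there allows far fewer patterns than 12870.

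The ratio of guide to passenger arm of miR-99b had a median of 4.56 in WT, where it ran from 4.37 to 4.70, and of 4.34 in Dgcr8+/- mice, where it ran from 3.79 to 4.54. The difference was −0.27 with a 95% interval from −0.46 to −0.10 (exact permutation p = 0.00202, adjusted p = 0.00909), and before normalization it was −0.41. The passenger arm was not detected on Dgcr8+/- replicate 2, which held the lowest ratio. The 4 probes of that arm disagreed, with differences from −0.077 to 0.40. The call was lost with marked outlier spots kept, with the median over probes and with the deposited total intensity (exact permutation test, adjusted p = 0.0545, 0.0727 and 0.211). On slide 1 it rested on Dgcr8+/- replicate 2: within that slide it was −0.35, and with Dgcr8+/- replicate 5 as the lone Dgcr8+/- array 0.021, while within slide 2 it was −0.36.

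The same ratio for miR-125a had a median of 5.90 in WT, where it ran from 5.79 to 6.00, and of 5.78 in Dgcr8+/- mice, where it ran from 5.11 to 5.89. The difference was −0.19 with a 95% interval from −0.38 to −0.034 (exact permutation p = 0.0107, adjusted p = 0.0322), and before normalization it was −0.30. It was −0.40 within slide 1 and −0.11 within slide 2. With normexp background correction it was −0.017, with marked outlier spots kept it turned to 0.77, and with the deposited total intensity it was −0.22, none of which passed. Without Dgcr8+/- replicate 2, the lowest array, it was −0.10 and no longer passed (exact permutation test, adjusted p = 0.062). The call was also lost without WT replicate 1, 2, 4, 5, 6 or 7 (exact permutation test, adjusted p = 0.0606 to 0.0904). For miR-125b-5p over miR-125b-2-3p the difference was 0.0037 with a 95% interval from −0.29 to 0.28, and it did not pass. This ratio says little about the arms, since miR-125b-2-3p was detected on 3 of 8 Dgcr8+/- arrays and 1 of the 2 probes of miR-125b-5p cannot differ between arrays after quantile normalization.

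Between paralogues no ratio passed after quantile normalization. For miR-99a-5p over miR-100-5p, which differ by 1 base, the difference was 0.048 with a 95% interval from −0.027 to 0.12. For miR-99a-5p and miR-100-5p over miR-99b-5p it was 0.088 (95% interval −0.090 to 0.29) and 0.040 (−0.12 to 0.22), and both turned in sign between slides, from 0.30 and 0.25 within slide 1 to −0.022 and −0.071 within slide 2. For miR-125a-5p over miR-125b-5p it was 0.0014 with a 95% interval from −0.14 to 0.12 after normalization, but −0.098 before it, which passed (exact permutation test, adjusted p = 0.0136). The value after normalization is partly fixed, since 1 of the 2 probes of miR-125b-5p cannot differ between arrays there. For miR-99a-5p over miR-125b-2-3p, which lie in the same cluster, it was −0.16 with a 95% interval from −0.48 to 0.15, and −0.30 before normalization. With slide as a block it was −0.37 and passed (exact permutation test within slides, adjusted p = 0.0431), at −0.63 within slide 1 and −0.098 within slide 2. On slide 1 the Dgcr8+/- arrays were replicate 2, at 6.90, and replicate 5, at 7.47. miR-125b-2-3p was detected on only 3 of 8 Dgcr8+/- arrays.

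The let-7 miRNAs of the clusters, which repress growth-promoting genes, mostly did not pass the test. let-7c-5p had a difference of −0.038 (limma adjusted p = 0.496), let-7a-5p of −0.038 (limma adjusted p = 0.313) and let-7e-5p of −0.15 (limma adjusted p = 0.107). let-7e-3p had −0.17 (limma adjusted p = 0.0651), and let-7c-1-3p, detected on 11 arrays, was higher by 0.22 after normalization (limma adjusted p = 0.0255), against −0.16 before it. let-7a-2-3p was not detected on any array.

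Among array miRNAs that share a member's seed, miR-99a-3p has that of miR-99b-3p, and its difference was −0.14 (limma adjusted p = 0.217). miR-351-5p, miR-6367 and miR-6394 carry the seed of the miR-125 guides and were not detected on any array. Nor were miR-100-3p and miR-10b-5p, while miR-10a-5p, whose seed differs from that of miR-99/100, was detected on 6 WT arrays and 1 Dgcr8+/- array and was not tested. Its mean log2 signal was 3.13 in WT and 3.21 in Dgcr8+/- mice, but the medians were 3.14 and 3.06. The detected Dgcr8+/- array was replicate 2, which read 4.37 and raised the mean.

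Over the 16 arrays, the non-members whose signal followed a member most closely were found by Pearson r, as a description of arrays that share genotype, slide and brightness. They were miR-25-3p (0.86) and miR-19a-3p (0.82) for miR-99a-5p, and miR-350-3p (0.92) and miR-15a-5p (0.89) for miR-100-5p. miR-99a-5p and miR-100-5p followed each other with r = 0.87. For miR-125b-5p they were miR-7020-5p (0.92) and miR-7118-5p (0.91), and for miR-125a-5p miR-434-3p (0.91) and miR-129-5p (0.88). For miR-99b-5p they were miR-330-3p (0.94) and miR-3963 (0.93). Without the 2 arrays farthest from the member's median, Dgcr8+/- replicates 2 and 3, the value for miR-330-3p was 0.52 and miR-3963 did not vary, so its value rested on them. For miR-125a-5p, leaving out Dgcr8+/- replicates 2 and 6 likewise gave 0.69 for miR-434-3p and 0.59 for miR-129-5p.

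**Figure D4:**
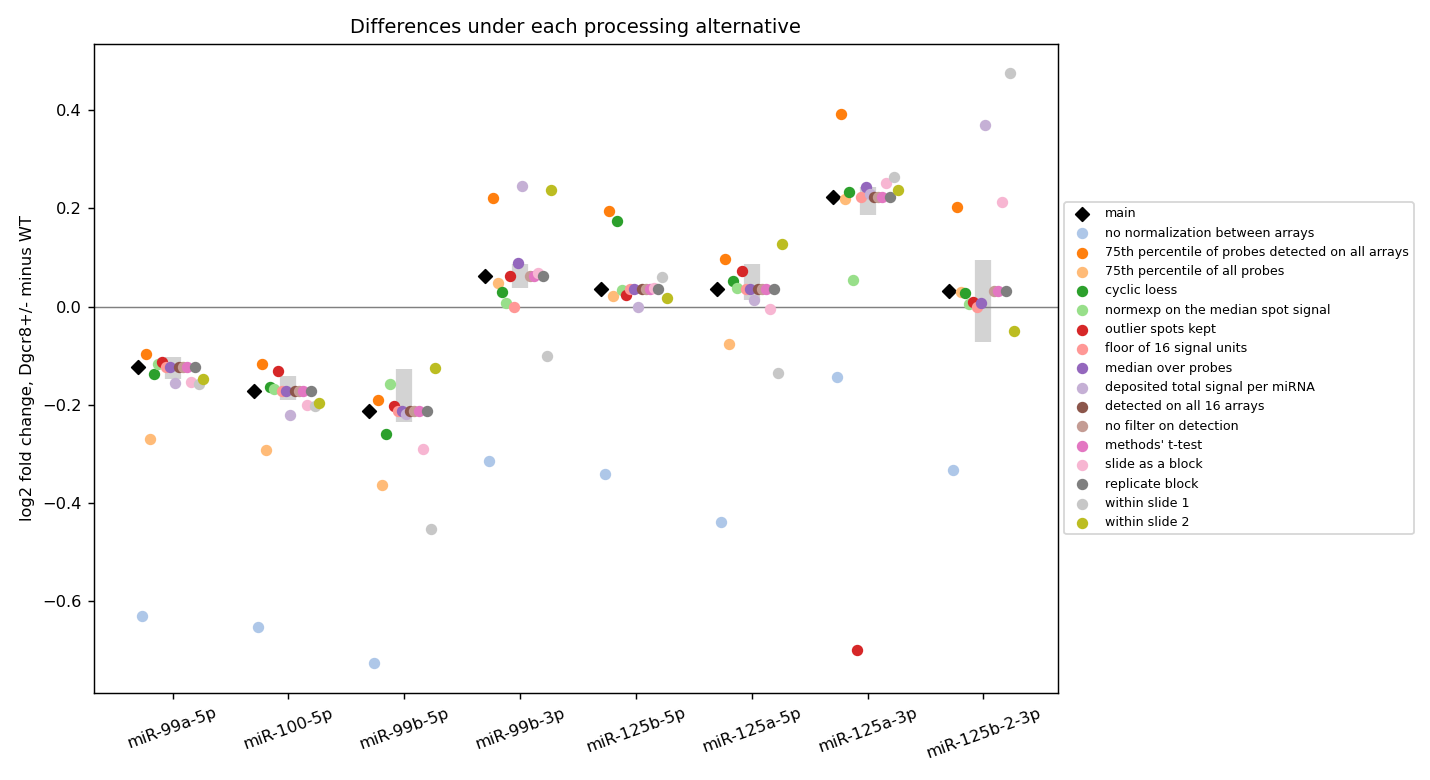
Log2 fold change of Dgcr8+/- over WT for each tested member as reported (black diamonds) and under each alternative (coloured circles), with grey bars for the range when 1 array at a time is left out. The miR-99/100 guides stay below 0 throughout, and without normalization all 8 members are below 0.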

How the data were processed

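Total RNA (mirVana kit) was Cy3-labelled and hybridised to the Agilent mouse miRNA v21 array. Per the file headers, spot intensity was extracted with Feature Extraction 10.7.3.1, while the submitters' processing notes give 10.5.1.1. The deposited scanner files hold background-subtracted intensity per spot, and the deposited value table holds the software's total intensity per miRNA, which equalled that of the scanner files. Marked outlier spots were left out, spots averaged per probe, 4415 probes quantile-normalized as in the study's methods, probes averaged per miRNA, and values under 1 unit set to 1 before log2. Tests covered miRNAs that the software called detected on 8 or more of the 16 arrays. Genotypes were compared with limma 3.58.1 (R 4.3.3) with Benjamini-Hochberg adjustment, in place of the methods' t-test. Ratios were compared by exact permutation. On simulated data, 45 of 50 differences of 0.4 and 20 of 50 of 0.2 were recovered, so smaller ones can be missed. Of 295 unchanged miRNAs, 12 were called. The simulated noise was independent, without slide effects or an outlying array, so these rates need not hold for the real arrays. The number of arrays limits the precision. Named miRNAs were every member, their cluster and seed relatives and, per guide, the 2 most alike non-members. Members and lists were chosen with earlier results of these data known.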

Additional observations from a re-analysis of the deposited data

Results flagged for a closer look

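In 34 groups of 8 arrays (8 members and 9 ratios in each genotype), arrays were looked for that lay apart from the other 7 by Dixon's criterion at the 95% level, which compares the gap to the nearest array with the spread of all 8. Chance gives about 1 in 20, or 1.7 groups, and 7 were found, all from Dgcr8+/- replicate 2, so they are not independent of each other. That array had a log2 signal of 7.08 for miR-99b-5p, against 7.69 to 7.83 on the other 7 Dgcr8+/- arrays, and of 9.89 for miR-125a-5p, against 10.22 to 10.38. Its log2 ratio of miR-99b-5p to miR-99b-3p was 3.79, and that of miR-125a-5p to miR-125a-3p was 5.11, both the lowest of their group. Its ratio of miR-99a-5p to miR-99b-5p was 3.20 and that of miR-100-5p to miR-99b-5p was 2.54, both the highest. Its ratio of miR-125a-5p to miR-125b-5p was −4.11, against −3.67 to −3.52. The same array was the dimmest before normalization, with a median log2 signal of 5.27, and its part in these values was not tested.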

How the results depend on the processing

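Differences and ratios are on the log2 scale, and a call is an adjusted p below 0.05. Without normalization between arrays, 293 of all tested miRNAs were lower and 0 higher, and 7 members were lower and 0 higher. There miR-99b-3p was at −0.3141, miR-125a-5p at −0.4385, miR-125a-3p at −0.1425, miR-125b-5p at −0.3406 and miR-125b-2-3p at −0.3324, all turned in sign. The ratios miR-125b-5p/miR-125b-2-3p (−0.008155) and miR-125a-5p/miR-125b-5p (−0.0979) also turned, and were the same under both scalings to a 75th percentile. With that percentile taken over probes above detection throughout, 1 member was lower and 3 higher: the calls of miR-99a-5p (−0.09543) and miR-100-5p (−0.1175) were lost, and miR-99b-3p (0.221) and miR-125b-5p (0.1945) passed. Over all probes, miR-125a-5p was at −0.07685. With cyclic loess 2 members were higher, miR-125b-5p was at 0.1745 and passed, and miR-125a-5p/miR-125b-5p was −0.1213. With normexp on the median spot signal, since the files hold no mean, miR-125a-5p/miR-125a-3p was −0.017 and lost its call, and miR-100-5p/miR-99b-5p was −0.008859. Over the alternatives, all tested miRNAs ran from 113 to 293 lower and 0 to 210 higher. The cause of these changes was not tested.

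With marked spots kept, 0 members were lower and 0 higher by limma: miR-99a-5p (−0.1121), miR-99b-5p (−0.202) and miR-100-5p (−0.1315) lost their calls, as did miR-99b-5p/miR-99b-3p (−0.2648), and miR-125a-3p (−0.6995) and miR-125a-5p/miR-125a-3p (0.7722) turned in sign. With a floor of 16, miR-99b-5p (−0.2117) lost its call and miR-99a-5p/miR-125b-2-3p (−0.1234) passed. With the median over probes miR-99b-5p/miR-99b-3p (−0.3003) lost its call. With the deposited total intensity, miR-99b-5p (−0.2175), miR-99b-5p/miR-99b-3p (−0.4641) and miR-125a-5p/miR-125a-3p (−0.216) lost their calls, and miR-125b-5p/miR-125b-2-3p was −0.3693 and miR-100-5p/miR-99b-5p −0.003136. Without the detection filter 0 members were lower by limma, and miR-99a-5p (−0.1234), miR-99b-5p (−0.2117) and miR-100-5p (−0.1715) lost their calls. By the methods' t-test with Benjamini-Hochberg adjustment, miR-99b-5p (−0.2117) lost its call.

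With slide as a block, miR-125a-5p was at −0.003778, miR-125b-5p/miR-125b-2-3p at −0.1744 and miR-125a-5p/miR-125b-5p at −0.04219, and miR-99a-5p/miR-125b-2-3p (−0.3651) passed. Within slide 1, values moved by over 1 SD for miR-99b-5p (−0.4525), miR-99b-3p (−0.09999), miR-125a-5p (−0.1352), miR-125b-2-3p (0.4748), miR-125a-5p/miR-125a-3p (−0.3995), miR-125b-5p/miR-125b-2-3p (−0.4149), miR-99a-5p/miR-99b-5p (0.2953), miR-100-5p/miR-99b-5p (0.2498), miR-125a-5p/miR-125b-5p (−0.1951) and miR-99a-5p/miR-125b-2-3p (−0.6321), and within slide 2 for miR-99b-3p (0.237). Within slide 2, miR-125b-2-3p (−0.049), miR-99a-5p/miR-99b-5p (−0.022) and miR-100-5p/miR-99b-5p (−0.071) had the opposite sign to their value over both slides, and miR-125a-5p (0.13) and miR-125a-5p/miR-125b-5p (0.11) the opposite sign to slide 1. With Dgcr8+/- replicate 5 as the lone Dgcr8+/- array of slide 1, a setting chosen after seeing the data, miR-99b-3p was −0.1082, miR-100-5p −0.05789, miR-125a-3p 0.06108, miR-99b-5p/miR-99b-3p 0.02059, miR-99a-5p/miR-100-5p −0.07701 and miR-99b-5p/miR-125a-5p −0.143.

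Samples of the same replicate number correlated at −0.14 to 0.50 in their deviations, above 0.1 in 5 of 8 pairs. Of the 8 WT arrays, 3 matched the Dgcr8+/- array of their own number best. Whether equal numbers mark paired mice was not settled by these values. With the replicate block, miR-99b-5p (−0.2117), miR-99b-5p/miR-99b-3p (−0.2736), miR-125a-5p/miR-125a-3p (−0.1863) and miR-99b-5p/miR-125a-5p (−0.2487) no longer passed, and all tested miRNAs numbered 140 lower and 147 higher. The ratios were tested there by exact sign flips over 8 pairs, whose smallest possible p is far above 0.000155. Loss of a ratio's call was thus partly fixed by that test. For miR-99b-5p/miR-125a-5p every pair went the same way, so its p was the smallest possible there and failed only after adjustment over the 9 ratios.

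With 1 array left out at a time, all tested miRNAs ran from 133 to 151 lower and 126 to 170 higher, and members from 1 to 3 lower and 1 to 2 higher. The ranges were −0.1481 to −0.1015 for miR-99a-5p, −0.2339 to −0.1262 for miR-99b-5p, 0.03775 to 0.08791 for miR-99b-3p, −0.1893 to −0.1412 for miR-100-5p, 0.01449 to 0.08701 for miR-125a-5p, 0.1871 to 0.2437 for miR-125a-3p, 0.02517 to 0.04056 for miR-125b-5p and −0.07207 to 0.09505 for miR-125b-2-3p. For the ratios they were −0.3098 to −0.204 for miR-99b-5p/miR-99b-3p, −0.2116 to −0.1001 for miR-125a-5p/miR-125a-3p, −0.06366 to 0.09724 for miR-125b-5p/miR-125b-2-3p, 0.01269 to 0.112 for miR-99a-5p/miR-99b-5p, −0.01833 to 0.07226 for miR-100-5p/miR-99b-5p, −0.02298 to 0.06184 for miR-125a-5p/miR-125b-5p, −0.2257 to −0.04149 for miR-99a-5p/miR-125b-2-3p and −0.2706 to −0.2133 for miR-99b-5p/miR-125a-5p.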
